A study of Arabidopsis thaliana with 5 samples.

Results

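The 4 genes described here encode enzymes of the non-oxidative pentose phosphate pathway of Arabidopsis thaliana, chosen by name as AT1G12230, AT1G63290, AT3G01850 and AT5G44520. They are 4 of 13355 genes that the platform annotation ties to a probe set of their own on these arrays, and each was read by that single probe set. RNA of tissue labelled secondary meristem was measured on Affymetrix arrays, 3 of ecotype Columbia and 2 of ecotype Landsberg erecta. All plants of both ecotypes had been clipped when they bolted, a mimic of browsing by a mammal, and were sampled on the following day. They were grown in a greenhouse with 16 h of light and 8 h of darkness from seeds kept cold for 3 days. Every array therefore came from clipped plants, and the response to clipping was not analysed here. The ecotypes were picked, per the design text, because they compensate differently for such damage. Landsberg erecta also carries a mutation in the receptor kinase gene ERECTA, which alters the growth of its inflorescence, so ecotype here stands for a whole genetic background. The labels call the arrays biological replicates without saying how many plants each one pooled.

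The non-oxidative branch of the pentose phosphate pathway rearranges sugar phosphates without making NADPH. Ribose-5-phosphate isomerase and ribulose-phosphate epimerase convert the ribulose phosphate left by the oxidative branch into ribose and xylulose phosphates, and transketolase and transaldolase then move carbon units between sugars to yield intermediates of glycolysis. The branch supplies ribose phosphate for nucleotides and erythrose phosphate for aromatic amino acids, both in demand in dividing tissue, and in plastids most of its reactions also run in the Calvin cycle. All reactions of the branch are reversible.

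Across the whole series, 22746 probe sets were tested on the 5 arrays, and array medians on the log2 scale lay between 5.44 and 5.5. With 5 arrays in all, precision is limited by their number. Of 10 marker genes of shoot and axillary meristems, 2 had a named probe set, LAS and CLV3, and both sat at 2.15, the lowest value in the table, on all 5 arrays. The meristem label could therefore not be checked on a marker with a measured level. Anther and stem markers were detected: AMS, a regulator of tapetum development, had 6.51, 6.76 and 4.95 on Columbia replicates 1 to 3 and 5.97 and 6.96 on Landsberg erecta replicates 1 and 2. Tied values were frequent: 12106 probe sets averaged above 5, and 5098 of them (42.1%) repeated a value, to 6 decimals, on 2 or more arrays. Of the 4 genes, AT3G01850 had 5 distinct values, AT1G12230 and AT5G44520 had 4 each and AT1G63290 had 3.

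AT1G12230 encodes a transaldolase, the enzyme that passes a dihydroxyacetone unit between sugar phosphates. Its log2 expression was 9.37, 9.15 and 9.15 on Columbia replicates 1 to 3, against 9.02 and 8.89 on Landsberg erecta replicates 1 and 2. Every Columbia value lay above both Landsberg erecta values, and AT1G12230 was the single one of the 4 genes whose ecotypes did not overlap. Over all 22746 probe sets, of which 16428 varied between arrays, 3.92% had every Columbia value above every Landsberg erecta value. Probe sets that do not vary cannot do so. It averaged 9.22 ± 0.13 over the Columbia arrays (SD, n = 3) and 8.96 ± 0.09 over those of Landsberg erecta (SD, n = 2). The difference, Columbia minus Landsberg erecta, was 0.27 with a standard error of 0.10 on the log2 scale, a 1.2-fold ratio with a 95% interval from 0.974 to 1.48. The difference did not pass (limma p = 0.0704, adjusted p = 1; two-sided exact permutation p = 0.1, the smallest that the 10 splits of 5 arrays allow).

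Some measures of tissue and RNA moved with the ecotypes in the same arrays as AT1G12230. Of 23 markers of green tissue, 3 had a named probe set (RCA, LHCB4.1 and LHCB4.2), and all 3 had higher means in Columbia. Their summed level on the linear scale ranged from 41100 to 43200 in Columbia and from 36400 to 37900 in Landsberg erecta. RCA and LHCB4.1, whose probe sets make up most of that sum, did not overlap between the ecotypes, but LHCB4.2 did. Its log2 values were 11.45, 11.82 and 11.41 on Columbia replicates 1 to 3, against 11.47 and 11.33 on Landsberg erecta replicates 1 and 2. The log2 ratio of the 3 prime to the 5 prime GAPDH control, a reading of RNA integrity and labelling, averaged 0.93 ± 0.04 over the Columbia arrays (SD, n = 3) and 1.24 ± 0.02 over the Landsberg erecta arrays (SD, n = 2; two-sided exact permutation p = 0.1). The same ratio of the ubiquitin control did not move with the ecotypes. It averaged 0.85 ± 0.11 over the Columbia arrays and 0.87 ± 0.03 over the Landsberg erecta arrays (SD, two-sided exact permutation p = 0.9). For the control of 25S ribosomal RNA, the Columbia arrays averaged 8.01 ± 0.22 (SD, n = 3) and the Landsberg erecta arrays 6.85 ± 0.44 (SD, n = 2; two-sided exact permutation p = 0.1). The part of these in the values of AT1G12230 was not tested. In such bulk tissue, fewer cells of a type and less RNA per cell cannot be told apart.

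The epimerase gene AT1G63290 set the Landsberg erecta arrays apart from each other rather than from Columbia. Ribulose-phosphate epimerase makes xylulose phosphate, a substrate of transketolase. Its log2 expression was 8.31 on each of the 3 Columbia arrays, identical to 6 decimals, against 8.50 and 8.11 on Landsberg erecta replicates 1 and 2. The Columbia value thus lay between the Landsberg erecta values, which were 0.40 apart. The ecotype difference was 0.0047 with a standard error of 0.14, and its 95% interval ran from -0.42 to 0.42 (limma adjusted p = 1; two-sided exact permutation p = 0.7). Among 12027 probe sets that averaged above 5 and varied between arrays, 364 (3.03%) likewise held 1 value on the 3 Columbia arrays.

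That tie bears on the fits that left out 1 Landsberg erecta array. Without Landsberg erecta replicate 1, AT1G63290 was called higher in Columbia, by 0.20 (limma adjusted p = 0.000195). Without Landsberg erecta replicate 2 it was called lower in Columbia, by -0.19 (limma adjusted p = 0.00025). Both calls measured a lone array against 3 identical values and assumed that it varied as little as they did. In those fits 4.46% and 4.11% of all probe sets were called, against 0% with all 5 arrays, and AT1G63290 was the only 1 of the 4 genes among them.

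AT3G01850, the other epimerase gene, had values that overlapped between the ecotypes. Its log2 expression was 6.48, 6.24 and 6.14 on Columbia replicates 1 to 3, against 6.35 and 6.12 on Landsberg erecta replicates 1 and 2. The Columbia arrays alone spanned 0.34, which is most of the 0.37 spanned by all 5. Its ecotype difference was 0.05, and the 95% interval ran from -0.39 to 0.50 (limma adjusted p = 1). Its direction turned to -0.04 without Columbia replicate 1, the highest array, and to -0.06 without Landsberg erecta replicate 2, the lowest. AT3G01850 and AT1G63290 encode the same enzyme activity, and their log2 ratio within an array averaged 2.02 ± 0.18 over the Columbia arrays (SD, n = 3) and 2.07 ± 0.12 over the Landsberg erecta arrays (SD, n = 2), with AT1G63290 on top.

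AT5G44520 is annotated as a ribose-5-phosphate isomerase gene, the enzyme that interconverts ribulose and ribose phosphates. Its log2 expression was 7.36, 7.44 and 7.53 on Columbia replicates 1 to 3, against 7.36 and 7.23 on Landsberg erecta replicates 1 and 2. The ecotypes met at 7.36, a value that Columbia replicate 1 and Landsberg erecta replicate 1 shared to 6 decimals. It averaged 7.44 ± 0.08 over the Columbia arrays (SD, n = 3) and 7.30 ± 0.10 over those of Landsberg erecta (SD, n = 2). They differed by 0.15, and the 95% interval ran from -0.08 to 0.37 (limma adjusted p = 1). With single arrays left out the difference ranged from 0.08, without Landsberg erecta replicate 2, to 0.21, without Landsberg erecta replicate 1.

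**Figure D1:**
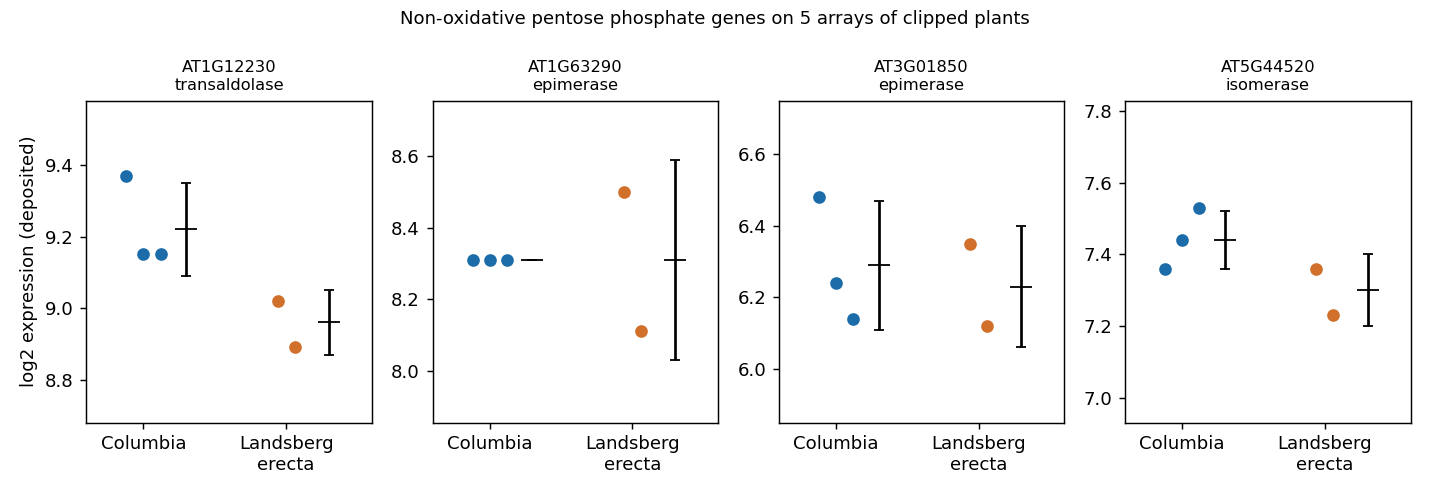
Log2 expression of the 4 genes (vertical axes, each spanning 0.9 log2 units) on the 3 Columbia arrays (blue, replicates 1 to 3 from left to right) and the 2 Landsberg erecta arrays (orange, replicates 1 and 2), with the mean and SD of each ecotype in black. AT1G12230 is separated by ecotype, from 9.15 upwards in Columbia and up to 9.02 in Landsberg erecta, while AT1G63290 has 1 value in Columbia between its Landsberg erecta values of 8.50 and 8.11.

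None of the 4 genes passed the adjusted threshold of 0.05 in limma (0 of 4), and 0 of 4 had an unadjusted p under 0.05. Over all 22746 probe sets, 0% passed the adjusted threshold and 1.78% the unadjusted one. The smallest adjusted p of any probe set in limma was 0.165, so no list of genes could hold an adjusted call. That 0 genes of a list passed therefore says nothing particular to that list. The intervals of all 4 genes lay within a 2-fold change in either direction. Their upper ends were 1.48-fold for AT1G12230, 1.34-fold for AT1G63290, 1.41-fold for AT3G01850 and 1.3-fold for AT5G44520, and ties between arrays may make them too narrow. All 4 had means at least slightly higher in Columbia, AT1G63290 by only 0.0047, with a median difference of 0.10. Of the 16428 probe sets that varied, 53.2% had a higher mean in Columbia, with a median difference of 0. Their median absolute difference was 0.1, so a difference of the size found for the 4 genes was common. The median of the 4 genes depended on Landsberg erecta: it was 0.21 without replicate 1 and 0.0088 without replicate 2.

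**Figure D2:**
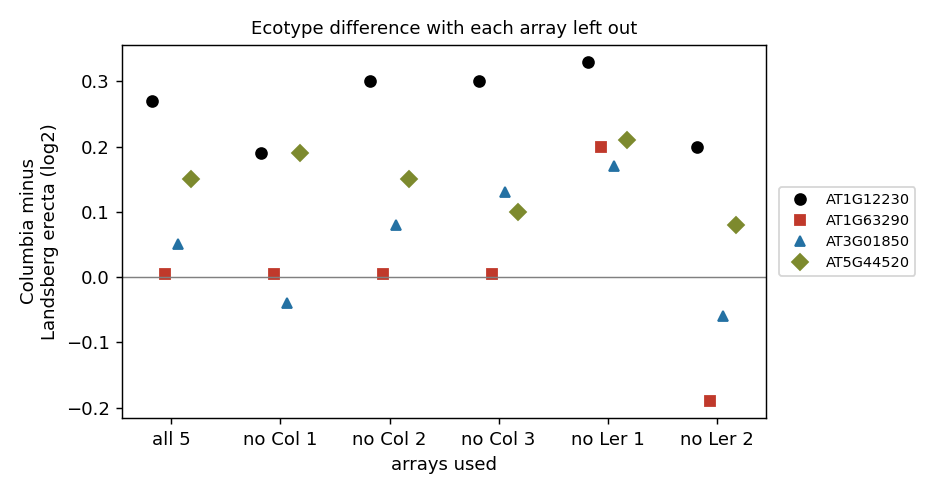
Columbia minus Landsberg erecta on the log2 scale (vertical axis) for each of the 4 genes, with all 5 arrays and with each array left out in turn (horizontal axis; Col, Columbia; Ler, Landsberg erecta). AT1G12230 stays between 0.19 and 0.33 and AT5G44520 between 0.08 and 0.21, whereas AT1G63290 goes to 0.20 without Landsberg erecta replicate 1 and to -0.19 without replicate 2.

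Within Landsberg erecta the 4 genes shared a direction. Each was lower on Landsberg erecta replicate 2 than on any other array, by 0.13 to 0.40 relative to Landsberg erecta replicate 1, with a median gap of 0.18. Over the probe sets that varied, the median absolute gap between the Landsberg erecta arrays was 0.14, so gaps of this size were common. AT3G01850 was lowest there by a small margin, at 6.12 against 6.14 on Columbia replicate 3. Among the probe sets that varied, 19.5% had their single lowest value on that array, and 42.1% were higher and 42% lower on replicate 1 than on replicate 2. For AT1G63290, AT3G01850 and the median of the 4 genes, the gap between the Landsberg erecta arrays was larger than the difference between the ecotype means. For AT1G12230 and AT5G44520 the gap of 0.13 was smaller than the ecotype differences of 0.27 and 0.15. This rests on 1 array against another and has no replicate check.

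On the Columbia arrays the genes did not run together. AT1G12230 and AT3G01850 were highest on Columbia replicate 1, by 0.25 and 0.22 above their own 5-array means. AT5G44520 was highest on Columbia replicate 3, at 0.15 above its mean, where AT3G01850 lay 0.12 below its mean (a deviation of -0.12). AT1G63290 did not vary over these arrays.

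Ratios of 2 of the genes within an array show whether their ecotype differences were unequal, while the height of such a ratio compares different probe sets and has no meaning of its own. For transaldolase AT1G12230 over epimerase AT1G63290 the log2 ratio was 1.06, 0.84 and 0.84 on Columbia replicates 1 to 3, against 0.52 and 0.78 on Landsberg erecta replicates 1 and 2. For AT1G12230 over epimerase AT3G01850 it was 2.89, 2.91 and 3.01 on the Columbia arrays, against 2.67 and 2.78 on the Landsberg erecta arrays. In these 2 of 6 ratios the ecotypes did not overlap, with ecotype differences of 0.26 and 0.21. Both contain AT1G12230, whose own values did not overlap, so they are not separate observations. The share of ratios without overlap among other pairs of genes was not counted. Neither passed (exact permutation test, two-sided p = 0.1 each, the smallest possible; 0.3 after Benjamini-Hochberg adjustment over the 6 ratios). The ratio of AT1G12230 to the isomerase gene AT5G44520 was 2.01, 1.71 and 1.62 on the Columbia arrays, against 1.66 and 1.66 on the Landsberg erecta arrays. The Landsberg erecta values lay inside the Columbia range, and the difference of 0.12 was 0.0038 without Columbia replicate 1.

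The 3 ratios among the epimerase and isomerase genes overlapped between the ecotypes. Their ecotype differences were -0.05 for AT1G63290 over AT3G01850, -0.14 for AT1G63290 over AT5G44520 and -0.09 for AT3G01850 over AT5G44520 (exact permutation tests, two-sided p = 0.9, 0.4 and 0.7). The widest spread within an ecotype was that of AT3G01850 over AT5G44520 in Columbia, with -0.88, -1.20 and -1.39 on replicates 1 to 3. The direction of the first turned to 0.05 without Columbia replicate 1 and to 0.03 without Landsberg erecta replicate 1, and that of the last to 0.02 without Columbia replicate 3.

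**Figure D3:**
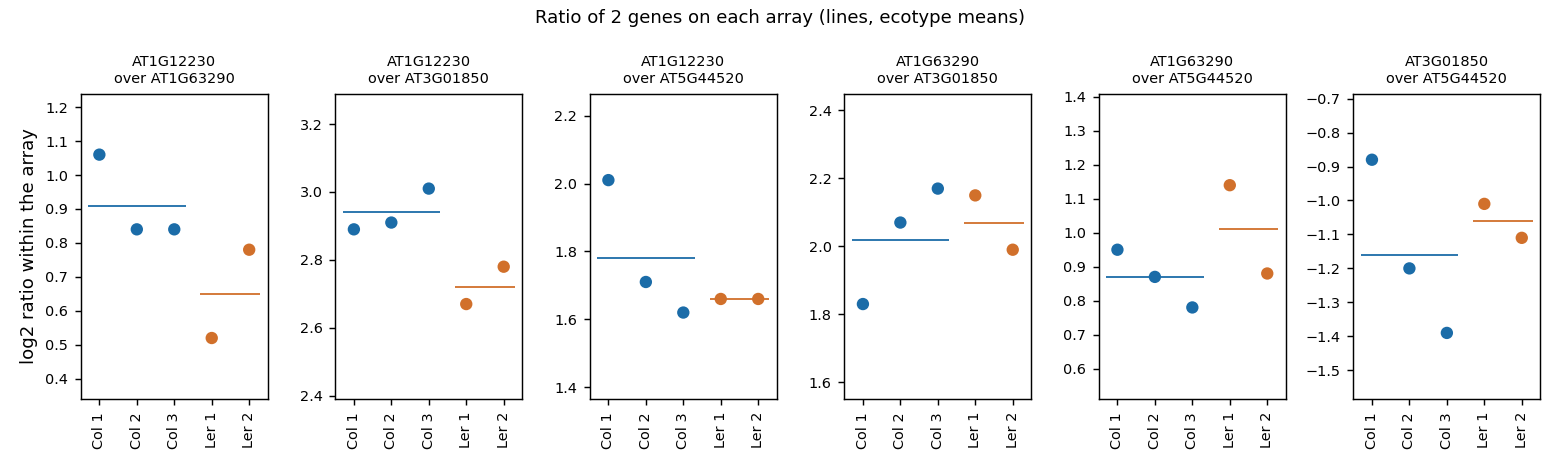
Log2 ratio of 2 genes within each array (vertical axes, each spanning 0.9 log2 units) for the 6 pairs of genes, on Columbia replicates 1 to 3 (blue) and Landsberg erecta replicates 1 and 2 (orange), with lines at the ecotype means. The ecotypes are apart in the first 2 panels, transaldolase AT1G12230 over either epimerase gene, and overlap in the other 4.

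Likeness of pattern was measured as the root mean square difference between the deviations of 2 probe sets from their own 5-array means, over 8459 varying probe sets of single genes above the lowest value on all arrays. The nearest of the 4 genes to each other were AT1G12230 and AT3G01850, at 0.115, with 5.99% of all other probe sets nearer to AT1G12230. The farthest were AT1G12230 and AT1G63290, at 0.173, with 36.2% of all others nearer to AT1G12230. The median distance of all other probe sets from AT1G12230 was 0.198. Counted from the other gene of these pairs, the shares were 10.7% for AT3G01850 and 49.7% for AT1G63290. The highest share was from AT5G44520, with 55% of all others nearer than AT3G01850, at 0.171 against a median distance of 0.16. The fewest probe sets nearer than another of the 4 genes was thus 507 of 8458, for AT1G12230 and AT3G01850. These distances are over 5 arrays that all 4 genes share.

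The genes nearest to AT1G12230 were AT2G31810 (distance 0.017), AT5G48730 (0.020) and AT2G35490 (0.033). AT2G31810 had 8.47, 8.22 and 8.20 on Columbia replicates 1 to 3, against 8.11 and 7.96 on Landsberg erecta replicates 1 and 2, the same order of arrays apart from the tie. Nearest to AT1G63290 were UBC32, a ubiquitin-conjugating enzyme gene, at 0.010, then AT1G26550 at 0.010 and AT3G55600 at 0.012. UBC32 had 7.18, 7.19 and 7.19 on the Columbia arrays, against 7.40 and 7.0 on the Landsberg erecta arrays. Nearest to AT3G01850 were AT2G26210 (0.015), AT3G08030 (0.026) and AT1G26750 (0.033). Nearest to AT5G44520 were LPA1, a gene named for the accumulation of photosystem II, at 0.024, and AT2G42040 and AT1G59960, at 0.025 each. LPA1 had 7.83, 7.95 and 8.05 on the Columbia arrays, against 7.83 and 7.75 on the Landsberg erecta arrays. None of the 12 nearest genes belonged to the non-oxidative or oxidative pentose phosphate, Calvin cycle or glycolysis lists. These lists held only 4, 3, 4 and 10 measured genes, against 8459 probe sets searched. Their absence was therefore likely whatever the patterns, and nothing is read from it.

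The other 7 loci of the non-oxidative branch on the list of 11, both transketolase genes among them, had no probe set named through the annotation used here and were not analysed here. In the oxidative branch, 3 of 14 listed loci were measured, all of them genes of 6-phosphogluconate dehydrogenase, which makes the ribulose phosphate that the isomerase and epimerase use. Of these 0 passed, 2 had higher means in Columbia and 1 lower, and the median difference was 0.01. All 3 were lower on Landsberg erecta replicate 1 than on replicate 2, the opposite of the 4 non-oxidative genes, with gaps between -0.03 and -0.41. AT5G41670 had 10.17, 10.23 and 10.31 on Columbia replicates 1 to 3, against 10.11 and 10.52 on Landsberg erecta replicates 1 and 2, so that its arrays of Landsberg erecta held both its lowest and its highest value. AT1G64190 had 10.25, 10.25 and 10.40 on the Columbia arrays, against 10.22 and 10.25 on the Landsberg erecta arrays.

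Glycolysis genes, which work on the hexose and triose phosphates that the non-oxidative branch returns, also ran against the 4 genes within Landsberg erecta. Of 39 listed loci 10 were measured and 9 varied. Of these 9, 7 were lowest of all arrays on Landsberg erecta replicate 1 and 2 on Landsberg erecta replicate 2, while 16.2% of all varying probe sets had their single lowest value on replicate 1. The median gap of replicate 1 minus replicate 2 was -0.27 over the glycolysis genes and 0.18 over the 4 genes, a contrast between single arrays that was not tested. AT5G42740, a phosphoglucose isomerase gene named after its values were seen, had 9.02, 9.10 and 8.87 on Columbia replicates 1 to 3, against 8.52 and 9.04 on Landsberg erecta replicates 1 and 2. Those lowest on replicate 2, with the 4 genes, were GAPC2 and TPI, which encode cytosolic triose phosphate enzymes. TPI had 13.02, 13.02 and 13.06 on the Columbia arrays, against 12.99 and 12.93 on the Landsberg erecta arrays. GAPC2, a glyceraldehyde phosphate dehydrogenase gene, spanned 13.69 to 13.71 over all arrays. Between ecotypes, 0 glycolysis genes passed, 8 had higher means in Columbia and 1 lower, with a median difference of 0.05 that was -0.04 without Landsberg erecta replicate 1 and 0.17 without replicate 2.

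Calvin cycle genes were nearly level within Landsberg erecta, with gaps between -0.03 and 0.04. Of 19 listed loci 4 were measured, 0 passed and all 4 had higher means in Columbia, with a median difference of 0.14 and a median gap between the Landsberg erecta arrays of 0. Whether this gap differs from that of the 4 genes was not tested. At an unadjusted p under 0.05, 2 of the 4 were higher in Columbia, where 1.17% of all probe sets were. These were RCA, Rubisco activase, higher by 0.17, and AT1G56190, a phosphoglycerate kinase gene, higher by 0.31 (limma adjusted p = 1 for each). AT1G56190 had 10.91, 10.93 and 11.11 on Columbia replicates 1 to 3, against 10.69 and 10.66 on Landsberg erecta replicates 1 and 2. RCA also stands among the 3 green-tissue markers, whose summed level was higher on every Columbia array than on either Landsberg erecta array, and the part of tissue makeup in these values was not tested. With single arrays left out the median of the Calvin cycle genes stayed between 0.12 and 0.16, a narrower range than the 0.0088 to 0.21 of the 4 genes. The Calvin cycle genes also had higher log2 values on every array, from 10.66 upwards, against at most 9.37 for the 4 non-oxidative genes. The part of signal level in these ranges was not tested.

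**Figure D4:**
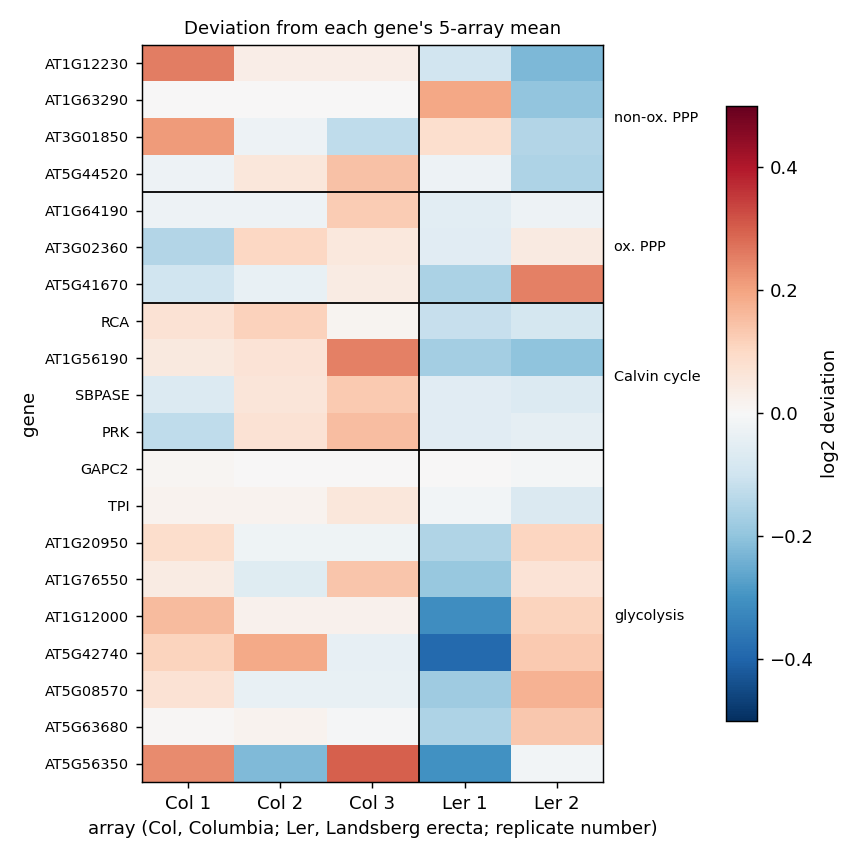
Deviation of each gene from its own mean over 5 arrays (colour, log2 scale) for the 4 non-oxidative (non-ox. PPP) and 3 oxidative pentose phosphate (ox. PPP), 4 Calvin cycle and 9 varying glycolysis genes (rows), on Columbia replicates 1 to 3 (Col) and Landsberg erecta replicates 1 and 2 (Ler). The 4 non-oxidative genes are lowest on Landsberg erecta replicate 2, while 7 of the 9 glycolysis genes are lowest on Landsberg erecta replicate 1.

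Genes that draw on the products of the branch gave no call, nor did any probe set of the whole series with all 5 arrays. Among PRPP synthetases, which charge ribose phosphate for nucleotide synthesis, and pentose kinases, 4 of 8 loci were measured, 0 passed, and the median difference was 0.03. AT1G17160, a ribokinase gene, had 6.42, 6.42 and 6.65 on Columbia replicates 1 to 3, against 6.40 and 6.06 on Landsberg erecta replicates 1 and 2. It was lowest on replicate 2 and without overlap (limma adjusted p = 1), but was named for the smallest p of its list. Of the 4 measured genes of that list, 1 was lowest on Landsberg erecta replicate 2, and the median gap between the Landsberg erecta arrays was 0. AT2G35390, a PRPP synthetase gene, had 3.78 on Columbia replicate 1 and 3.76 on the other 4 arrays. In the shikimate pathway, which starts from erythrose phosphate, 2 of 10 loci were measured and 0 passed. AT1G22410, a gene of its first enzyme, had 10.67, 10.83 and 11.05 on the Columbia arrays, against 10.85 and 11.14 on the Landsberg erecta arrays, and AT5G66120 differed by 0.04. AT5G17630, which encodes the xylulose phosphate translocator of the plastid envelope, had 8.96 on all 3 Columbia arrays, against 8.78 and 8.97 on the Landsberg erecta arrays, with the low value on replicate 1.

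**Figure D5:**
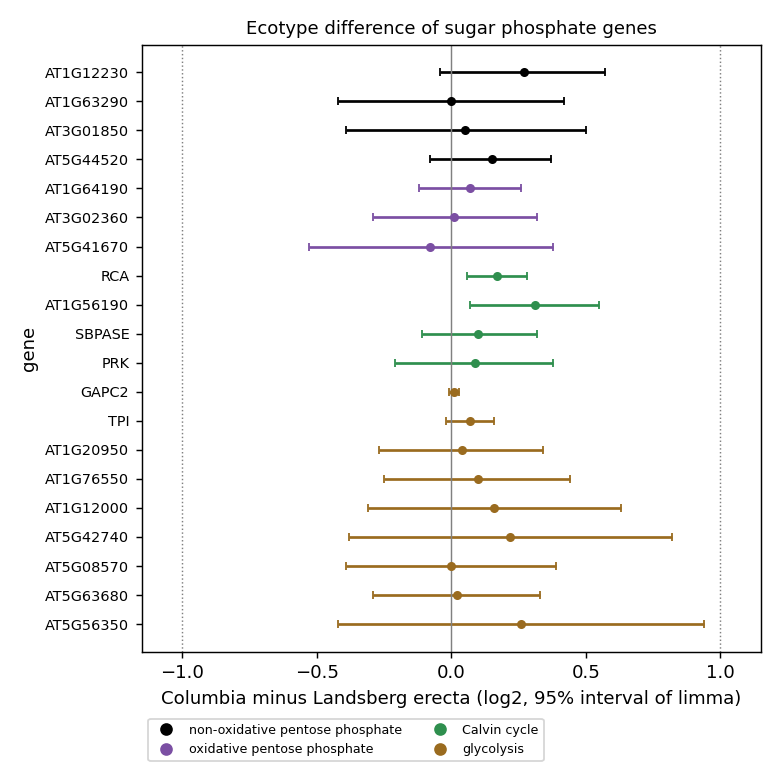
Columbia minus Landsberg erecta (horizontal axis, log2) with the 95% interval of limma for the 4 non-oxidative genes (black) and for oxidative pentose phosphate, Calvin cycle and varying glycolysis genes. Dotted lines mark a 2-fold change, no interval reaches them, and those of RCA and AT1G56190 lie above 0 before adjustment.

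Markers of stem and anther varied more between arrays than the 4 genes did. GUT2, the 1 measured of 8 markers of stem secondary walls, had 5.79, 6.88 and 8.27 on Columbia replicates 1 to 3, against 7.68 and 8.01 on Landsberg erecta replicates 1 and 2. EMS1, a receptor kinase gene of anther development and 1 of 2 measured of 5 anther markers, had 4.93, 4.93 and 3.34 on the Columbia arrays, against 4.93 and 5.74 on the Landsberg erecta arrays. AMS and EMS1 were both highest on Landsberg erecta replicate 2, the array on which the 4 genes were lowest, with replicate 1 minus replicate 2 at -0.99 and -0.81. The summed linear level of the anther markers ranged from 41 to 139 in Columbia and from 93.1 to 178 in Landsberg erecta, and their part in the values of the 4 genes was not tested.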

How the data were processed

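Per the labels' protocols, 2 ug of Trizol-extracted RNA per array went into biotin-labelled cRNA. The deposited values are log2 expression, judged from their range. Their background correction, normalization and summarization are not given in the sources used here. Of 22810 probe sets, 64 controls were left out. The platform annotation listed 14016 probe sets, 13513 with 1 gene; 13436 of these matched RefSeq genes (TAIR10.1) by identifier, and 8794 probe sets are unnamed here. Sequences and coordinates were not used.

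Columbia minus Landsberg erecta was fitted with limma 3.58.1 in R 4.3.3 (lmFit, eBayes, no covariate, prior 0.359 and residual 3 degrees of freedom) over 22746 probe sets, with Benjamini-Hochberg adjustment and a threshold of 0.05. The fit was tested on simulated data that had no ties and held added differences larger than those of the 4 genes. That test does not show how the fit handles ties or differences as small as theirs. Permutation tests enumerated 10 splits (scipy 1.17.1). Figures used matplotlib 3.10.9.

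The members and the 12 lists were chosen with earlier results of these data known. Of 154 listed loci 35 were measured, each by its probe set with the highest mean, and ATML1 and PDF1, the epidermis markers, were among those not measured (0 of 2). Named genes were the 4 members, up to 2 genes of smallest p per list and the 3 nearest patterns per member; LHCB4.2 and AT5G42740 were named after their values were seen. Alternatives were quantile normalization, equal array medians, filters at the 25th and 50th percentile of the mean, robust or trended eBayes, array weights, other thresholds, no probe sets binding several genes, each array left out, and the replicate number as a block.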

Additional observations from a re-analysis of the deposited data

How the results depend on the processing

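The ecotype differences of AT1G12230 and AT5G44520 were above 0 in all 32 alternatives run (16 each) and passed in none. Filters on probe sets, robust or trended eBayes and other thresholds cannot change these differences, so only the remaining alternatives could turn a sign. That of AT1G63290 was -0.0074 with quantile normalization, and it ran from -0.19 to 0.20 when single arrays were dropped, called at both ends against 3 identical Columbia values. For AT3G01850 the left-out range was -0.06 to 0.17. The number of the 4 genes that passed was 0 in all alternatives but the left-out arrays (0 to 1). The number of all probe sets that passed was 406 at an unadjusted p under 0.05 and 0 to 1014 with single arrays left out, the calls coming where 1 Landsberg erecta array remained. Ratios of 2 genes without overlap numbered 2 of 6, and 2 to 4 with arrays left out, with 4 without Columbia replicate 1. Equal array medians cannot change a ratio within an array. The sign turned in 4 of 48 alternatives of single ratios: AT1G63290 over AT3G01850 ranged from -0.13 to 0.05 and AT3G01850 over AT5G44520 from -0.23 to 0.02 with arrays left out, this last ratio being 0.02 also with the replicate number as a block. The cause was not tested, other than that of the left-out arrays. Under another measure of likeness (largest deviation), 2, 2, 3 and 1 of the 3 nearest genes of AT1G12230, AT1G63290, AT3G01850 and AT5G44520 were shared.

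The labels do not say that replicate numbers pair arrays, and deviations from the group means correlated across probe sets at -0.03 for number 1 and 0.08 for number 2. With the replicate block, AT1G12230 differed by 0.30 (interval 0.03 to 0.57; limma adjusted p = 1) and AT3G01850 by 0.13 (interval 0.09 to 0.17; limma adjusted p = 0.833). Columbia replicate 3 had no partner in the block, so these differences equal those without that array (0.30 and 0.13). The block also left few residual degrees of freedom, so its intervals are uncertain. An unadjusted p under 0.05 was reached by 2 of the 4 genes with the block and by 0 without it. The share of all probe sets that reached it with the block was not counted, so nothing is read from this. No adjusted call of the 4 genes changed.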
